A study of Caenorhabditis elegans with 20 samples.

Results

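The genes described here encode subunits of the mitochondrial respiratory chain and of ATP synthase, with 6 assembly factors of complex IV that share the *cox-* prefix. They were measured in whole adult *Caenorhabditis elegans*. Members were the genes whose symbol in the array annotation begins with *nuo-*, *nduf-*, *ndu* plus letters, *sdha-*, *sdhb-*, *sdhd-*, *ucr-*, *cyc-*, *cox-*, *atp-*, *asb-* or *asg-*. This gave 63 of the 17118 genes on the array that have a probe set with 1 symbol. Complex I had 30 members, complex II 4, complex III 5, cytochrome c 2, complex IV 7, its assembly factors 6 and ATP synthase (complex V) 9. The rule itself uses symbols only, except that a gene with several probe sets was read from the one with the highest mean over the arrays.

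Electrons from NADH enter the chain at complex I, and those from succinate enter at complex II. They pass through ubiquinone to complex III, through cytochrome c to complex IV and so to oxygen. The protons pumped on the way drive ATP synthase. Most subunits are encoded in the nucleus, and several in *C. elegans* come as pairs of paralogs, one of them on the X chromosome. The core subunits encoded by mitochondrial DNA are not among the members.

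A reduction-of-function allele of *daf-2*, the gene of the insulin/IGF-1 receptor, was present in all 4 genotypes. So was *glp-4*(bn2), which limits germ cell numbers at high temperature. The genotypes were *glp-4*(bn2); *daf-2*(e1370), *glp-4*(bn2); *daf-2*(m577), and both again with *daf-16*(mgdf50) added. The product of *daf-16* is a FOXO transcription factor downstream of the receptor. Each had 5 replicates labelled biological, of 8 plates pooled. Per the labels, eggs hatched at 20 °C, larvae grew at 15 °C until most were at the last larval stage, and adults were taken 1 day after a shift to 25 °C. There was no strain with intact *daf-2*, so every value compares *daf-2* mutants with each other.

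Levels are on the log2 scale after joint normalization of the 20 arrays, so a difference of 1 is a doubling. Levels of different probe sets were not set against each other. The members' means all lay above the highest mean among 15 Bacillus control probe sets, 5.20, and the lowest, *cox-10*, had a mean of 6.41. Array medians ran from 6.41 to 6.57, and arrays of 1 genotype correlated at 0.785 or more. As a check of the labels, *daf-16* was lower in the strains with mgdf50 by 0.76 ± 0.19 (SE) on 1 probe set (limma, adjusted p = 0.0174) and by 0.69 ± 0.17 on another (adjusted p = 0.0175), and its other 2 probe sets did not pass. The animals were labelled sterile, and both germ line lists were well above the controls. Over 42 oocyte and germ cell genes the mean per array ran from 8.22 to 11.13, and over 45 sperm genes from 7.70 to 11.29. The sperm level was lowest on m577 replicate 3, *daf-16*; e1370 replicate 5 and e1370 replicate 4. These arrays are named below wherever a result turns on them.

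Of all members, a single one passed the test for *daf-16*, *cox-6A*, which encodes a small nuclear subunit of complex IV, cytochrome c oxidase. Over both *daf-2* alleles it was higher with *daf-16* by 0.30 ± 0.08 (SE), a 1.23-fold rise (limma, adjusted p = 0.0193). The other 62 members did not pass, and 2 of 63 had an unadjusted p under 0.05. Of all 22548 probe sets, 6.32% passed in this comparison and 3.63% were higher with *daf-16*, so 1 call among 63 members is a smaller share than on the array as a whole. The members' median difference was 0.00, against 0.01 over all genes, with 32 members above 0 and 31 below. Marker lists gave, in the same comparison, 0 calls over 42 oocyte and germ cell genes (38 below 0, median −0.35, 0 with an unadjusted p under 0.05), 1 lower of 45 sperm genes (45 below 0, median −0.61), 9 lower and 2 higher of 21 intestine genes, 0 of 25 muscle genes (1 with an unadjusted p under 0.05), 1 higher of 19 neuron genes and 0 of 14 hypodermis genes (1 with an unadjusted p under 0.05). The sperm median includes m577 replicate 3, *daf-16*; e1370 replicate 5 and e1370 replicate 4, with sperm list means of 7.70, 7.81 and 8.48. Other arrays were at 9.55 or more. The part of these lists in the members' values was not tested.

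*cox-6A* stood at 13.15, 12.76, 13.15, 12.98 and 13.25 on the 5 e1370 arrays, and at 12.55, 12.72, 12.52, 12.71 and 12.95 on those of *daf-16*; e1370. In m577 it read 12.82, 13.01, 12.93, 12.95 and 12.91, and in *daf-16*; m577 it read 12.53, 12.51, 12.76, 12.74 and 12.88. The groups overlapped in both alleles, through e1370 replicate 2 and through the highest array of each strain lacking *daf-16*. The gene has 3 probe sets, all of a design that can match similar sequences elsewhere. The other 2 gave 0.21 and 0.07 for the same difference. The one at 0.21 separated the e1370 arrays fully from those without *daf-16*, at a difference of 0.34 in that allele (limma, adjusted p = 0.0432). The mean of the 3 probe sets gave 0.19 and did not pass (adjusted p = 0.0646), nor did the used one after cyclic loess normalization (0.29, adjusted p = 0.0706). The call was also lost with the 3' minus 5' difference of the control transcripts in the model (0.27, adjusted p = 0.279) and with a block by the number in the strains' alternative names (0.23, adjusted p = 0.308).

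The next smallest p-values in this comparison belonged to *cox-18* and *nduf-6*. *cox-18*, whose yeast counterpart helps insert the COX2 subunit of complex IV into the inner membrane, differed by 0.39 ± 0.12 (limma, adjusted p = 0.0576). Its levels were 7.77, 7.11, 6.95, 6.90 and 6.93 in e1370 and 6.49, 6.69, 6.89, 6.40 and 7.14 in *daf-16*; e1370. They were 6.51, 6.59, 7.05, 6.85 and 6.73 in m577 and 6.26, 6.44, 6.29, 6.45 and 6.43 in *daf-16*; m577. The m577 arrays lay wholly above those without *daf-16*, while the e1370 arrays overlapped. *nduf-6*, a complex I subunit of the NDUFS6 type, differed by 0.30 ± 0.16 and did not pass (adjusted p = 0.405).

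**Figure D1:**
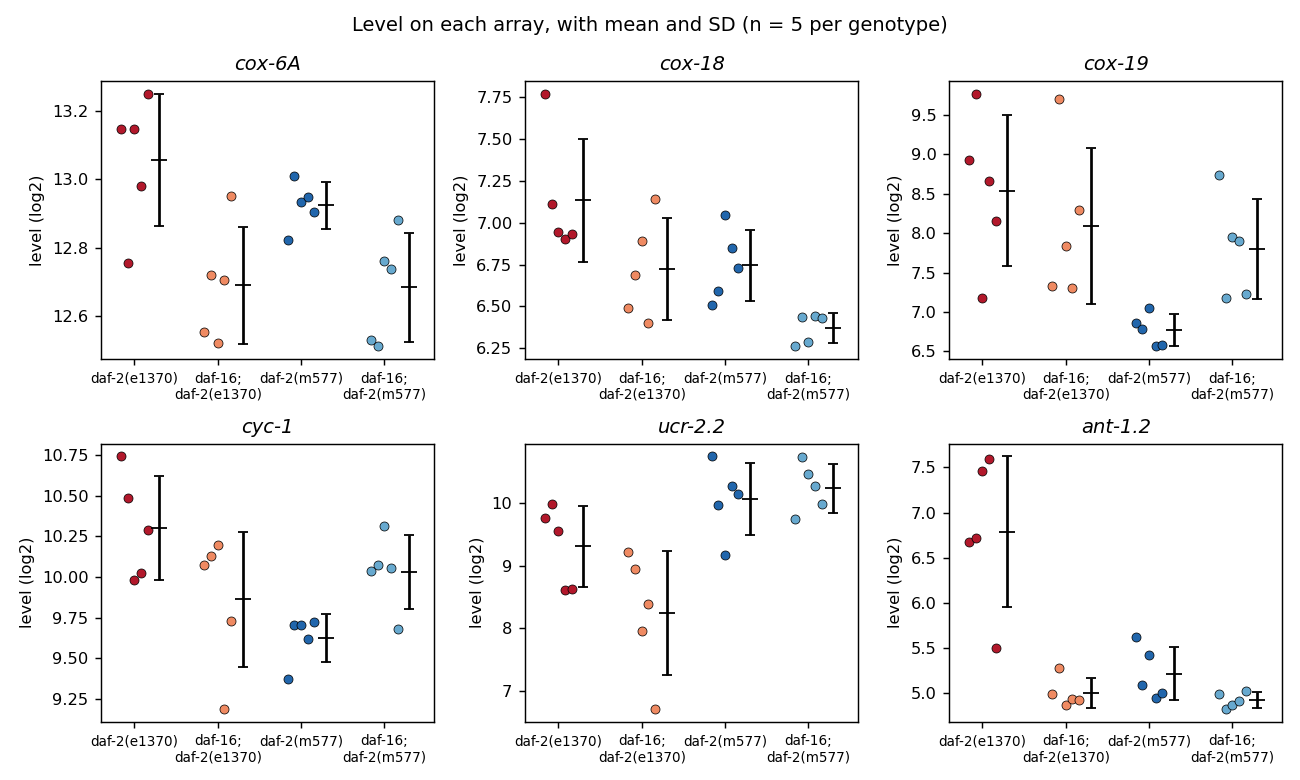
Levels (log2) of 5 chain genes and of *ant-1.2* on each of the 20 arrays, with 1 point per array and, beside each genotype, the mean with its SD (n = 5). The axes do not start at 0. *cox-6A* was higher with *daf-16* in both alleles with overlapping arrays, and *ant-1.2* was raised on the e1370 arrays, from 5.50 to 7.60.

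Within e1370, 0 of 63 members passed by limma, against 4.38% of all probe sets, and 6 had an unadjusted p under 0.05. No member separated the e1370 arrays from those without *daf-16*, where 3.78% of all probe sets did. The members' median difference was 0.16, against 0.00 over all genes, with 51 above 0 and 12 below. In m577 alone, 0 of 63 passed, against 1.79% of all probe sets, and 5 had an unadjusted p under 0.05. There the median was −0.14, against 0.02 over all genes, with 17 above 0 and 46 below. The difference between the 2 alleles' differences had a median of 0.29 over the members and −0.02 over all genes. It passed for 0 of 63 members, with 6 at an unadjusted p under 0.05, and for 0.177% of all probe sets, so the members were not shown to respond differently in the 2 alleles.

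**Figure D2:**
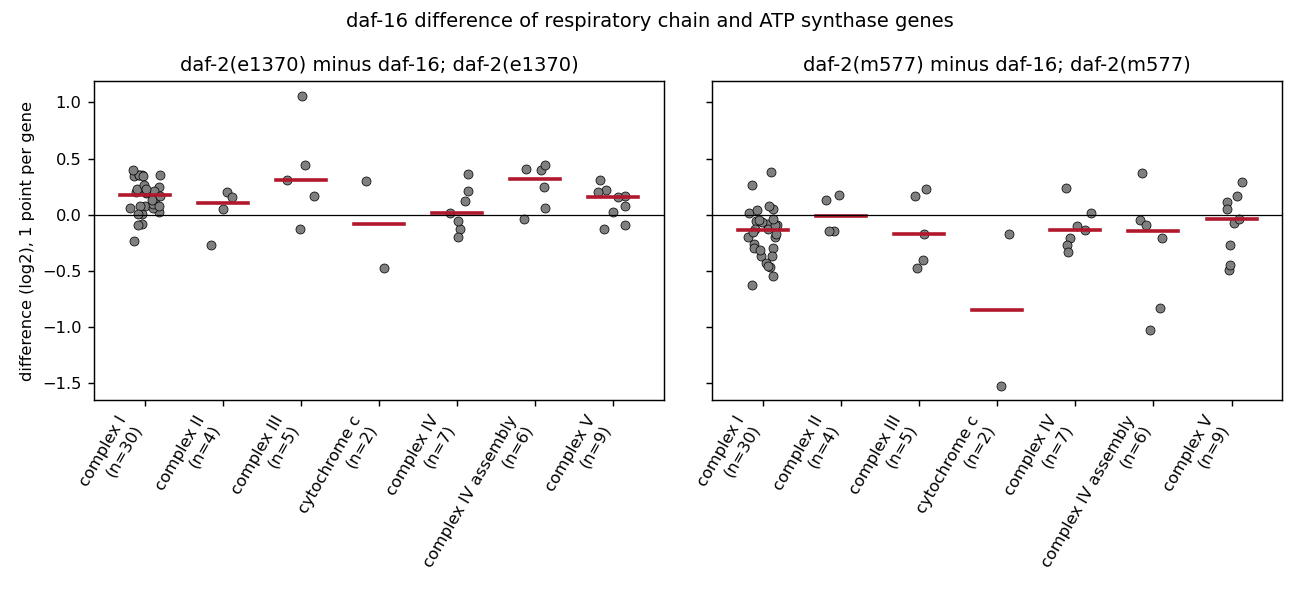
The *daf-16* difference (log2, *daf-2* minus *daf-16*; *daf-2*) of each member, by complex, in e1370 on the left and in m577 on the right. Each point is a gene and each red line the median of its complex. For complex I, 27 of 30 points lie above 0 in e1370 and 24 of 30 lie below 0 in m577.

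By complex, the medians in e1370 were 0.18 for complex I, 0.10 for complex II, 0.31 for complex III, 0.02 for complex IV, 0.32 for its assembly factors and 0.16 for ATP synthase. In m577 they were −0.14, −0.01, −0.17, −0.14, −0.15 and −0.04 in the same order. The smallest adjusted p-values in e1370 were those of *cox-6A* (0.37, adjusted p = 0.0659), of *cyc-2.1* (0.30 ± 0.10, adjusted p = 0.0998) and of *ucr-2.2* (1.06 ± 0.41, adjusted p = 0.234), all by limma and none passing. *cyc-2.1* encodes a cytochrome c and was the steadiest member, with a pooled SD within genotypes of 0.13. It read 13.03, 12.57, 12.78, 12.78 and 12.59 in e1370 and 12.58, 12.28, 12.51, 12.31 and 12.56 without *daf-16*, where only the lowest e1370 array fell inside the range of the other strain.

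Lower levels of intestine genes accompanied the e1370 comparison. Of 21 intestine markers, 9 were lower and 2 higher in e1370 than in *daf-16*; e1370, and the list's mean per array ran from 9.08 to 9.81 against 9.80 to 10.84. Single genes of the list differed from −3.47 (*pho-1*) to 4.09 (*mtl-1*). The list mean therefore cannot tell a change in intestine content from changes of single genes. The part of these differences in the members' values was not tested.

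In m577, 8 of 63 members separated the 5 arrays from the 5 without *daf-16*, against 6.66% of all probe sets, none passing limma. *cox-18* was the one above, and *asg-1*, *cox-17*, *cox-19*, *cyc-2.2*, *ndub-5*, *ndub-6* and *nduc-2* lay below. *nduc-2*, a membrane-arm subunit of complex I, read 11.13, 11.26, 10.76, 10.77 and 10.87 in m577 and 11.40, 11.44, 11.54, 11.53 and 11.61 without *daf-16*. Its difference was −0.55 ± 0.23 (limma, adjusted p = 0.309). *cox-19*, a small protein that yeast needs to assemble complex IV, read 6.86, 6.78, 7.05, 6.57 and 6.58 in m577 and 8.73, 7.18, 7.95, 7.90 and 7.23 without *daf-16*, a difference of −1.03 ± 0.46 (limma, adjusted p = 0.343). *cox-18* had a difference of 0.37 in this allele (limma, adjusted p = 0.345). Other probe sets differed in sign: one that carries *cox-18* and a second symbol gave −0.21 for m577 and −0.08 over both alleles, and the second probe set of *ndub-6* gave 0.29 with overlapping arrays, against −0.20 on the one used.

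A sign of RNA or labelling quality moved with the m577 comparison. Control transcripts read at both ends gave a mean difference, 3' end minus 5' end, that ran from 1.19 to 1.61 in m577 and from 1.72 to 2.32 without *daf-16*, with no overlap. With array quality weights in place of equal ones, 24 of 63 members (38.1%) and 29.5% of all probe sets passed in m577. With the 3' minus 5' difference in the model, the members' median in m577 was 0.02 in place of −0.14. Of all probe sets 0.257% then passed, in place of 1.79%. Because the 2 genotypes did not overlap in this covariate, the model cannot tell it apart from *daf-16*, and its part was not tested. The sperm list was lower as well, with 44 of 45 genes below 0 and a median of −1.19, though 1 of them passed. That list's mean was 7.70 on m577 replicate 3 and 10.24 to 10.68 on the other m577 arrays, against 10.88 to 11.27 without *daf-16*. The size of the sperm difference thus turns in part on m577 replicate 3.

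For the difference between the alleles' differences, the smallest adjusted p-values were those of *cyc-2.1* (0.47 ± 0.14, adjusted p = 0.367), *cyc-1* (0.85 ± 0.26, adjusted p = 0.434) and *nduc-2* (0.89 ± 0.32, adjusted p = 0.666), all by limma. *cyc-1* encodes cytochrome c1, the heme protein of complex III. Its second probe set gave 0.23 in place of 0.85.

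With *daf-16* present, e1370 and m577 differed in no member by limma (0 of 63, against 1.32% of all probe sets), although 13 members had an unadjusted p under 0.05. In 5 members every e1370 array lay above every m577 array, against 3.02% of all probe sets for either direction: *cox-19*, *cyc-1*, *ndua-13*, *ndub-11* and *nduv-2*. The median difference, e1370 minus m577, was 0.15 over the members and −0.04 over all genes. It was 0.31 for complex I and 0.88 for the 6 complex IV assembly factors.

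The smallest adjusted p-values fell on complex IV assembly factors and *cyc-1*. *cox-19* differed by 1.77 ± 0.46 (limma, adjusted p = 0.064), with e1370 arrays at 8.93, 9.77, 7.18, 8.66 and 8.16 against 6.57 to 7.05 in m577. *cyc-1* differed by 0.68 ± 0.18 (adjusted p = 0.0731), with e1370 arrays at 10.74, 10.49, 9.98, 10.02 and 10.29 and m577 arrays at 9.37, 9.70, 9.71, 9.62 and 9.72. *cox-15*, whose yeast counterpart makes heme A for complex IV, differed by 1.06 ± 0.31 (adjusted p = 0.0943), at 9.37, 9.01, 8.43, 9.14 and 9.64 against 7.26, 8.08, 8.81, 8.00 and 8.15. The differences moved little when 1 array was left out (1.46 to 2.11 for *cox-19*, 0.57 to 0.76 for *cyc-1* and 0.86 to 1.25 for *cox-15*), but the number of calls did. Without e1370 replicate 3, 5 members (7.94%) and 3.08% of all probe sets passed. Without *daf-16*; e1370 replicate 2, 2 members (3.17%) and 2.68% of all probe sets passed. Without m577 replicate 3 or *daf-16*; e1370 replicate 4, 1 member passed (1.59%), against 2.8% and 1.42% of all probe sets. Intestine markers differed here too, with 20 of 21 lower in e1370 and 3 passing. These comparisons share the e1370 and m577 arrays with those above.

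Without *daf-16*, the alleles differed in 0 of 63 members and in 0.00443% of all probe sets by limma, with 5 members at an unadjusted p under 0.05. *ucr-2.2* and *cyc-2.1* were below in every *daf-16*; e1370 array, against 0.648% of probe sets separated in either direction. *ucr-2.2* encodes 1 of 3 core 2 proteins of complex III and read 9.21, 8.95, 7.96, 8.39 and 6.72 in *daf-16*; e1370 and 9.74, 10.74, 10.45, 10.26 and 9.98 in *daf-16*; m577. The difference of −1.99 ± 0.41 was 3.97-fold and did not pass (limma, adjusted p = 0.415). Its second probe set gave −2.07 (adjusted p = 0.226). *cyc-2.1*, at 12.28 to 12.58 in *daf-16*; e1370 and 12.70 to 12.77 in *daf-16*; m577, differed by −0.27 and *nduf-11*, a membrane subunit of complex I, by −0.52, with adjusted p = 1 for both in limma.

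The level of the oocyte list differed among replicates of 1 genotype, and many members differed with it. In a model with genotype means and the array's oocyte list mean, fitted to all probe sets, 10 of 63 members rose and 21 fell with the oocyte list at an adjusted p under 0.05 (limma). Over all probe sets 17.3% rose and 14.1% fell, and over 1 probe set per gene 16.6% rose and 15.8% fell. The members' shares were 15.9% and 33.3%, so the share that rose was near the background and the share that fell was above it. The second did not hold in every setting: 7.94% of members and 6.73% of all probe sets fell with array weights. With a block by replicate number, 4.76% of members and 2.98% of all probe sets fell. Among the other marker lists, 8 of 14 hypodermis genes, 8 of 25 muscle genes, 3 of 19 neuron genes and 1 of 21 intestine genes fell with the oocyte list, and 1, 0, 1 and 3 rose, so somatic lists moved along the same axis. Their part in the members' slopes was not tested. This fit was chosen after the data were seen. In whole animals, fewer cells of a type and less RNA per cell cannot be told apart, and joint normalization makes every level relative to the other transcripts on the array.

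**Figure D3:**
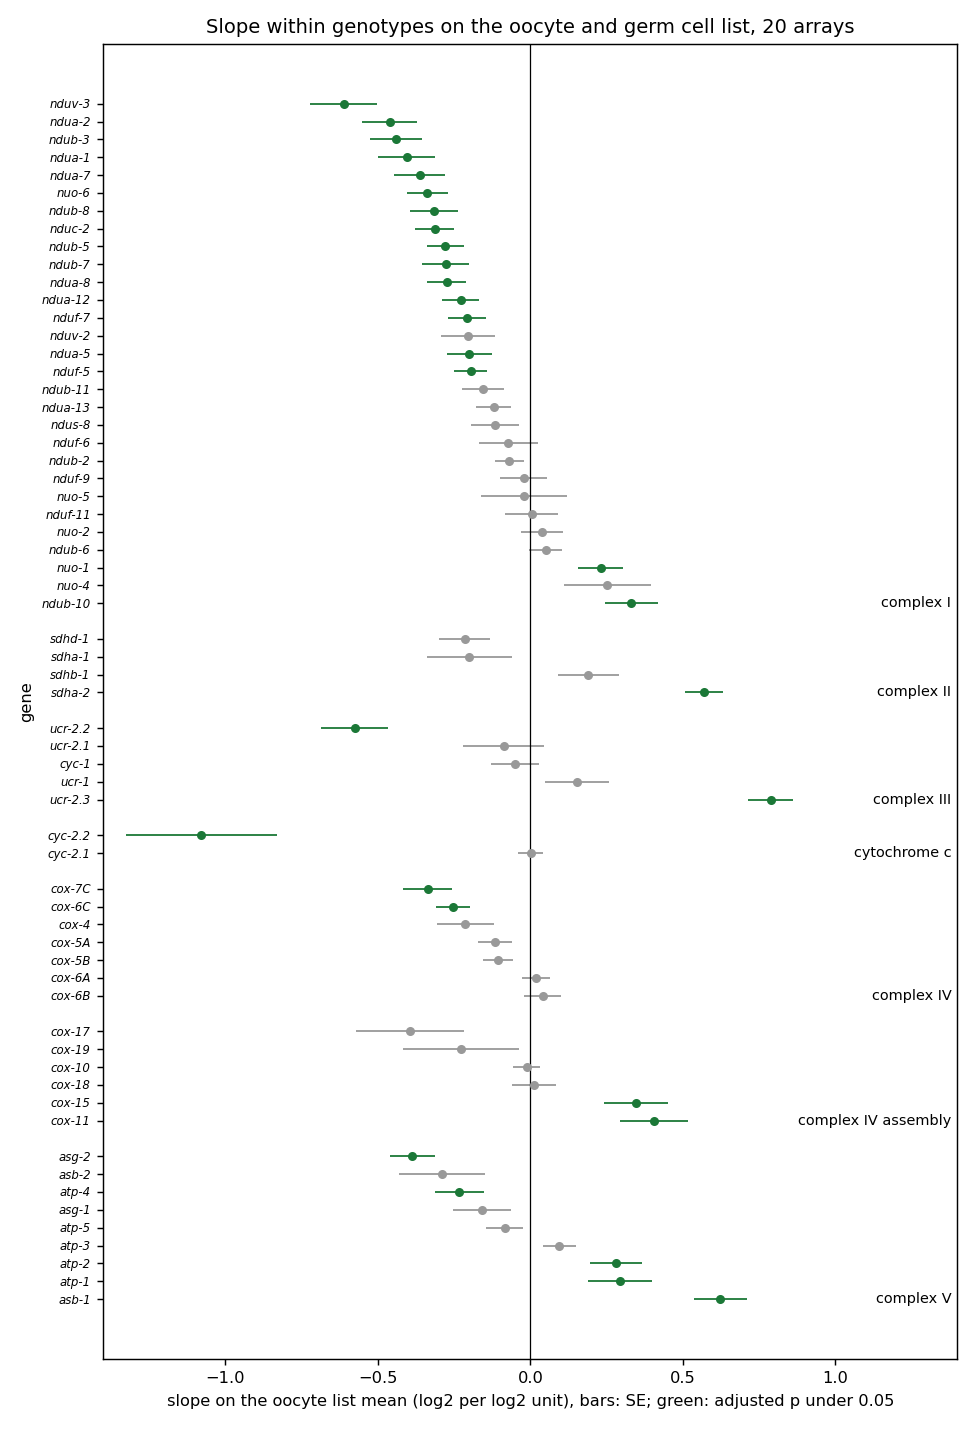
Slope of each member on the oocyte and germ cell list mean, in log2 units per log2 unit within genotypes, over 20 arrays and grouped by complex. Points are estimates, bars their SE, and green marks an adjusted p under 0.05. Slopes run from −1.08 for *cyc-2.2* to 0.79 for *ucr-2.3*, and complex I has 15 green points below 0. 1 member is not drawn.

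Among the members that rose were the autosomal paralogs *ucr-2.3*, *asb-1* and *sdha-2*. *ucr-2.3*, on chromosome III, encodes a core 2 protein of complex III. It rose by 0.79 ± 0.07 per unit of the oocyte list (limma, adjusted p = 7.21e-07). It read 8.54, 8.25, 8.92, 9.72 and 9.77 in e1370, where the oocyte list stood at 8.23, 8.87, 9.78, 10.78 and 10.45. In *daf-16*; e1370 it read 9.24, 7.34, 10.33, 8.86 and 10.07, with the list at 9.61, 8.22, 11.13, 9.54 and 10.71. In m577 it read 7.53, 8.40, 9.57, 8.42 and 8.66, with the list at 8.26, 8.84, 10.88, 9.23 and 9.35. In *daf-16*; m577 it stayed between 8.69 and 9.23, with the list between 9.35 and 10.18. The highest level in each of the other 3 genotypes was on 1 of the 2 arrays with most oocyte transcripts.

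Its paralogs *ucr-2.1* and *ucr-2.2* lie on the X chromosome. *ucr-2.2* fell by 0.58 ± 0.11 per unit (limma, adjusted p = 0.000652), and *ucr-2.1* had a slope of −0.09 ± 0.13 (adjusted p = 0.659). In e1370, *ucr-2.2* read 9.76, 9.98, 9.55, 8.61 and 8.63, lowest on the 2 arrays where *ucr-2.3* was highest. *ucr-2.1* read 10.74, 10.96, 11.36, 10.72 and 10.58 there. Over 20 arrays, deviations from the genotype means of *ucr-2.3* and *ucr-2.2* correlated at −0.75, as a description.

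*sdha-2*, on chromosome I, encodes a flavoprotein subunit of complex II, as does *sdha-1* on the X chromosome. *sdha-2* rose by 0.57 ± 0.06 per unit of the oocyte list (limma, adjusted p = 2.77e-06). Its levels were 8.31, 8.61, 8.77, 9.44 and 9.60 in e1370, 9.36, 7.85, 10.12, 8.96 and 9.78 in *daf-16*; e1370, 8.17, 8.81, 9.45, 9.02 and 9.06 in m577, and 9.13, 8.92, 9.23, 9.11 and 8.85 in *daf-16*; m577. *sdha-1* had a slope of −0.20 ± 0.14 (adjusted p = 0.311) and read 9.73, 10.07, 9.67, 9.38 and 9.32 in e1370.

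*asb-1* and *asb-2* encode the b subunit of ATP synthase's stalk, on chromosomes III and X. *asb-1* rose by 0.62 ± 0.09 per unit (limma, adjusted p = 3.5e-05), while *asb-2* had a slope of −0.29 ± 0.14 (adjusted p = 0.136). On *daf-16*; e1370 replicate 5, *asb-1* was at 11.52, the highest of all 20 arrays, and *asb-2* was at 8.95, the lowest of all 20. Deviations of this pair correlated at −0.64. *asg-1* and *asg-2* encode the g subunit, on chromosomes I and X. *asg-2* fell by 0.39 ± 0.07 per unit (adjusted p = 0.000647), and *asg-1* did not pass (slope −0.16 ± 0.09, adjusted p = 0.23). *asg-1* ran from 10.67 to 11.04 in m577 and from 10.84 to 12.09 in e1370.

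Others that rose were *cox-11* (0.41), *cox-15* (0.35), *ndub-10* (0.33), *atp-1* (0.29), *atp-2* (0.28) and *nuo-1* (0.23). *atp-1* and *atp-2* encode the alpha and beta subunits that form the catalytic head of ATP synthase, and *nuo-1* the NADH-binding subunit of complex I.

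**Figure D4:**
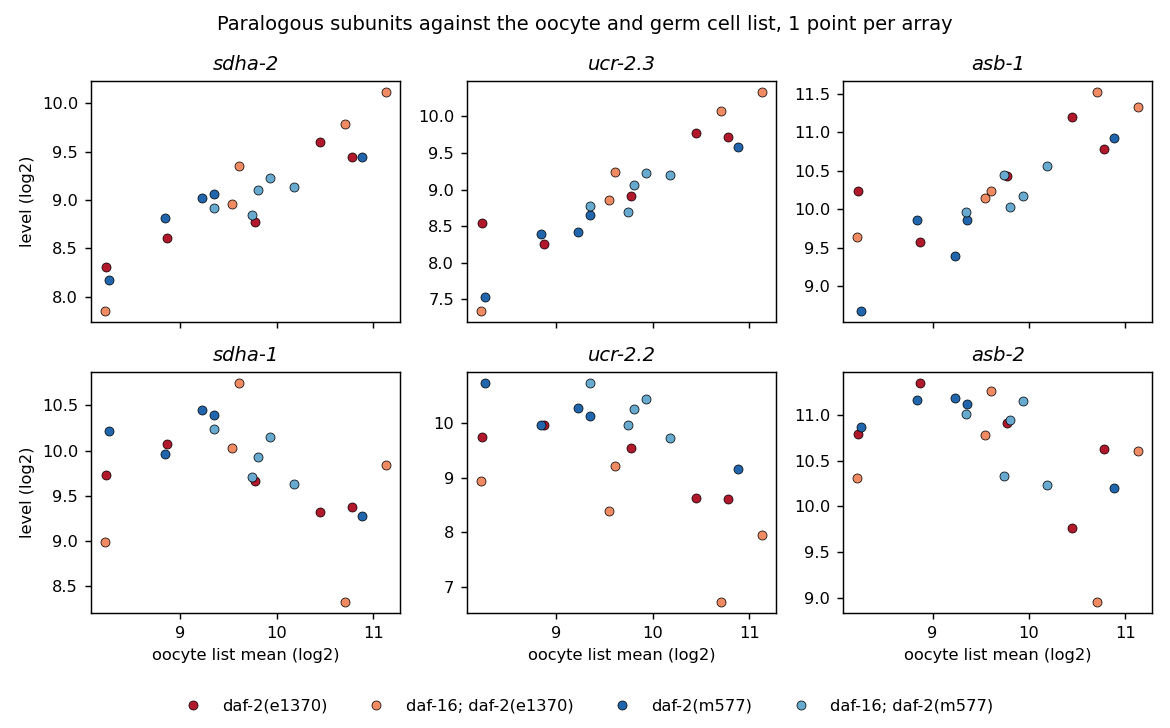
Level (log2) of each of 3 genes that rose with the oocyte list, top, and of a paralog, below, against the oocyte list mean (log2) of the array. Each point is 1 of 20 arrays, coloured by genotype. The top 3 rise along the axis in each panel, with slopes from 0.57 to 0.79, while *ucr-2.2* falls and *sdha-1* and *asb-2* have slopes that did not pass.

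Of 5 members on the X chromosome, 0 rose and 2 fell with the oocyte list by limma, against 17.3% and 14.1% of all probe sets. By correlation over the 20 arrays, another measure, 5.58% of 2349 genes on the X chromosome exceeded 0.5, against 20.1% of 14715 on the autosomes. Below −0.5 the shares were near equal, 21.8% on the X chromosome and 20.2% on the autosomes. The difference of *ucr-2.3*, *sdha-2* and *asb-1* in slope from their paralogs was not tested. Pearson's r of the deviations with the list's was 0.94 for *ucr-2.3*, 0.93 for *sdha-2* and 0.87 for *asb-1*, and Spearman's rho was 0.92, 0.87 and 0.87. Without the 2 arrays farthest out, *daf-16*; e1370 replicate 2 and m577 replicate 3, r was 0.92, 0.93 and 0.81. These arrays share the normalization and, within a genotype, the strain, and 5 arrays are too few for r within 1 genotype. Each of these 3 slopes passed in all 29 other settings tried.

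Of 30 complex I members, 15 fell with the oocyte list, with slopes from −0.61 to −0.20, 3 rose and 12 did not pass. The shares over all probe sets were 14.1% falling and 17.3% rising. Those that fell were *nduv-3*, *nuo-6*, *nduf-5*, *nduc-2*, 6 of the *ndua-* genes, 4 of the *ndub-* genes and *nduf-7*, a core iron-sulfur subunit of the NDUFS7 type. *nduv-3* fell most, by 0.61 ± 0.11 per unit (limma, adjusted p = 0.00035). It read 11.26, 11.43, 9.59, 9.92 and 9.76 in e1370 and 10.08, 11.90, 9.70, 9.98 and 9.91 in *daf-16*; e1370. In m577 it read 10.41, 9.94, 8.89, 9.60 and 9.59, and in *daf-16*; m577 it read 10.80, 9.91, 10.24, 10.25 and 10.39. Within *daf-16*; m577, 5 of the 15 were lower where the list was higher, by the sign over 5 arrays, and *nduv-3* was not among them.

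The mean of these 15 genes, a description since they were chosen by their slopes, was 11.68 and 11.46 on e1370 replicates 1 and 2 and 10.59 to 10.81 on the other 3. It was 11.66 on *daf-16*; e1370 replicate 2 and 10.54 to 10.81 on the rest of that genotype. In m577 it ran from 10.20 on replicate 3 to 10.89 on replicate 1, and in *daf-16*; m577 from 10.78 to 11.03. The high arrays were those with the lowest oocyte list levels in their genotype, 8.23 and 8.87 in e1370 and 8.22 in *daf-16*; e1370. e1370 replicate 1 was the highest of its genotype for 21 of 30 complex I members, and *daf-16*; e1370 replicate 2 for 18 and the lowest for 7.

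**Figure D5:**
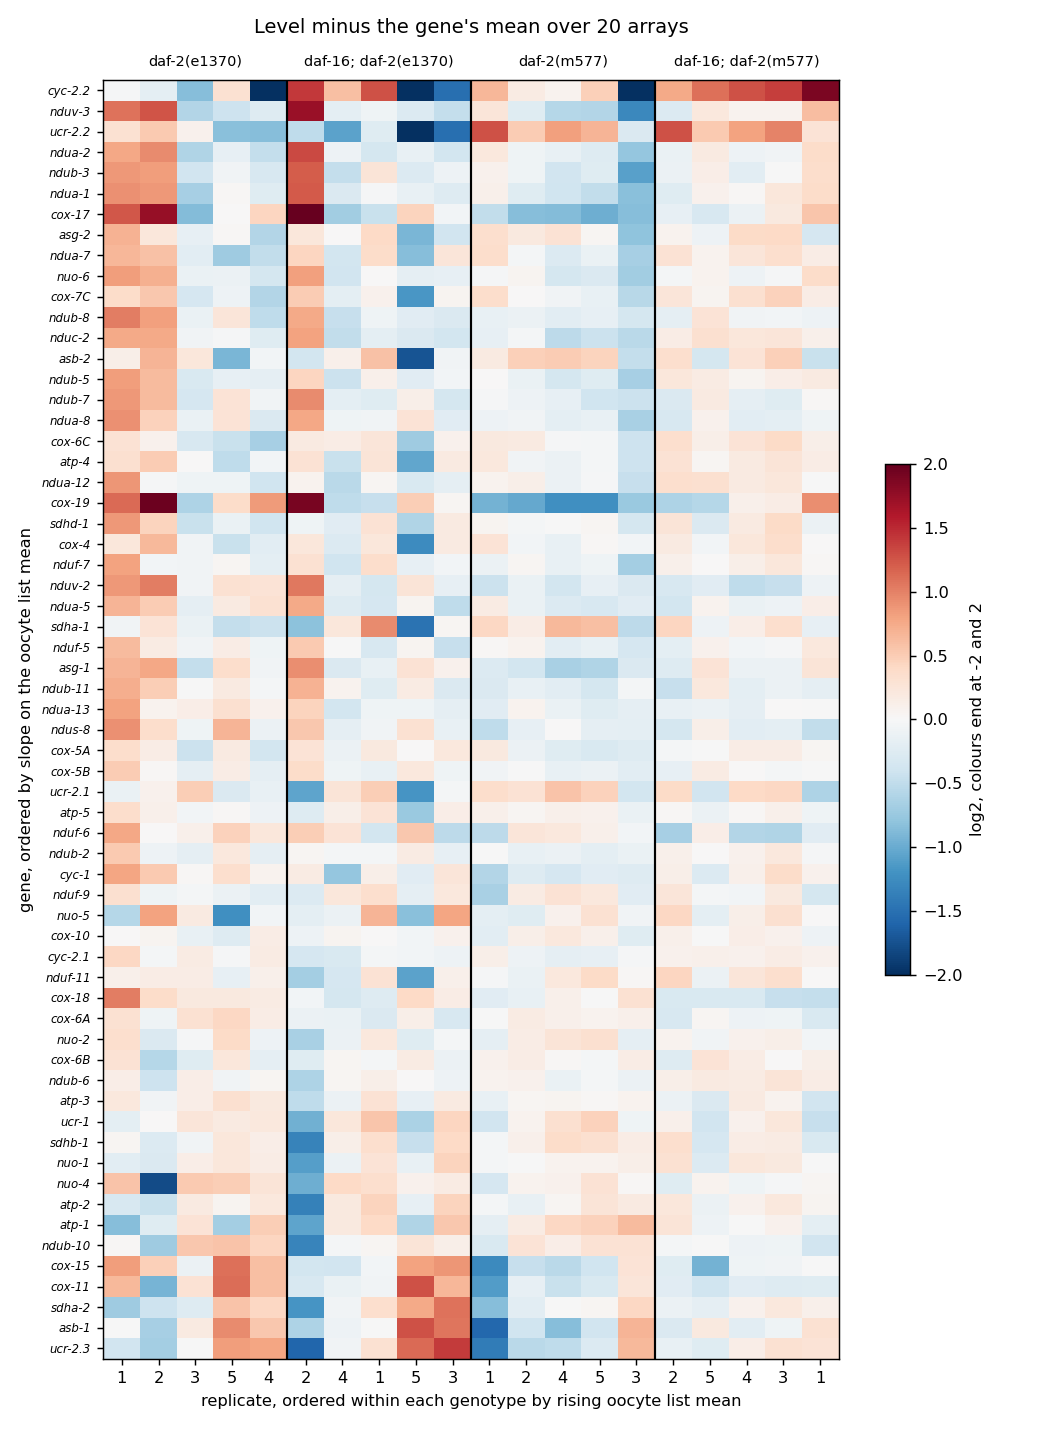
Level of each member, 1 of them not drawn, minus its mean over 20 arrays (log2, red higher and blue lower, colours ending at −2 and 2). Rows are genes ordered by slope on the oocyte list, and columns are arrays grouped by genotype and ordered by their oocyte list mean. Red blocks of complex I genes stand on e1370 replicates 1 and 2 and *daf-16*; e1370 replicate 2, and *ucr-2.3*, *asb-1* and *sdha-2* turn from blue to red along each genotype other than *daf-16*; m577.

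The number of members that fell depended on the model and on the arrays kept. With a block by replicate number, which leaves out no array, 4 members (6.35%) rose and 3 (4.76%) fell. Of all probe sets 10.5% and 2.98% did. The 21 members that fell had r from −0.81 to −0.57 over 20 arrays, rho from −0.81 to −0.42, and r from −0.77 to −0.45 without the 2 arrays farthest out. In *daf-16*; m577 the list had a narrow range. There 9 of these 21 were lower where the list was higher, by the sign over 5 arrays, and the rest were higher. Of the 15 complex I genes that fell, 5 were lower there. In each of the other genotypes all 21 were lower. Since the 21 were chosen by their slopes on these same arrays, these signs and r values are descriptions only. Leaving out the least correlated array of each genotype together (e1370 replicate 2, *daf-16*; e1370 replicate 2, m577 replicate 3 and *daf-16*; m577 replicate 5) left 4 that rose and 5 that fell (6.35% and 7.94%, against 12% and 6.82% of all probe sets). Leaving out any single array left 6 to 10 and 18 to 22, with 6 that rose without *daf-16*; e1370 replicate 2 or replicate 3. The sperm list moved against the oocyte list, 38 of 45 genes falling and 1 rising. With the sperm mean also in the model, 7 members (11.1%) rose and 12 (19%) fell, where 10.4% and 5.1% of all probe sets did.

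*cyc-2.2*, the cytochrome c paralog on chromosome V, was the most variable member, with a pooled SD of 1.39 within genotypes. It read 8.94, 8.77, 8.104, 5.95 and 9.27 in e1370, 9.63, 9.12, 6.36, 9.03 and 9.43 in m577, 10.24, 10.38, 7.45, 9.55 and 5.79 in *daf-16*; e1370 and 10.85, 9.72, 10.35, 10.23 and 10.06 in *daf-16*; m577. Its 3 lowest values fell on the 3 arrays with the lowest sperm list. They were 5.79 with the list at 7.81, 5.95 with it at 8.48 and 6.36 with it at 7.70. The next lowest, 7.45, came with the fourth lowest sperm level, 9.55. On the other 16 arrays it was 8.104 or more. No correlation with the sperm list was taken, since these arrays stand apart. The 3 arrays with the lowest values were also high on the oocyte list, at 10.71, 10.78 and 10.88. They are part of the gene's slope of −1.08 on that list. The m577 difference of −1.53 ± 0.83 separated the arrays fully and did not pass (limma, adjusted p = 0.448).

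Within complex IV, 2 of 7 members fell with the oocyte list, *cox-7C* (−0.34) and *cox-6C* (−0.25), and none rose. Of all probe sets 14.1% fell and 17.3% rose. *cox-6A* had a slope of 0.02 ± 0.05 (limma, adjusted p = 0.783), so the member called for *daf-16* was among those with least relation to it. Its call was nonetheless lost with the sperm and oocyte means in the model (0.26, adjusted p = 0.155).

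Of the other genes of the pathway, 12 further chain subunits without a member prefix were measured of 35 listed, and 0 passed in any of the 6 comparisons by limma, with at most 2 at an unadjusted p under 0.05. They include *mev-1*, which encodes the cytochrome b large subunit of complex II, and *isp-1*, the Rieske iron-sulfur protein of complex III. *isp-1* had genotype means from 12.11 to 12.46 and *mev-1* from 10.27 to 10.69. With the oocyte list, 6 of the 12 fell, *mev-1* among them (−0.32 ± 0.09, limma, adjusted p = 0.00901), and 0 rose. Of all probe sets 14.1% fell and 17.3% rose.

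Nucleotide carriers and ATPase inhibitors held the strongest *daf-16* difference of the pathway. *ant-1.2* encodes an adenine nucleotide translocator, which exchanges ADP and ATP across the inner membrane. It read 6.68, 6.72, 7.46, 7.60 and 5.50 in e1370 and 4.99, 5.28, 4.87, 4.94 and 4.93 in *daf-16*; e1370. It rose in e1370 with no overlap (limma, adjusted p = 0.000403), and over both alleles (adjusted p = 0.00188). Its mean was 6.79 ± 0.83 (SD, n = 5) in e1370, 5.00 ± 0.16 in *daf-16*; e1370, 5.22 ± 0.29 in m577 and 4.93 ± 0.08 in *daf-16*; m577. The last 3 lie at or near the highest control mean, 5.20, so the size of differences from them is uncertain. With each dim array counted at that control mean or at its own level, whichever is higher, the mean of *ant-1.2* was 2.99-fold higher in e1370 than in *daf-16*; e1370. By the same reckoning it was 2.76-fold higher in e1370 than in m577. Neither value allows for sampling error, and single control values reached 6.29. On the measured levels the second difference passed (limma, adjusted p = 0.00634), though the lowest e1370 array fell among those of m577. The difference between the alleles' differences did not pass (limma, adjusted p = 0.243). The 7 others of this list did not pass, where 4.38% of all probe sets passed in e1370 and 6.32% over both alleles. *ant-1.1*, the translocator of most tissues, stayed between genotype means of 12.88 and 12.98.

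In the same list of 8 genes, *ant-1.3*, *ant-1.4*, *mai-1* and *mai-2* fell with the oocyte list, by 0.75, 0.92, 0.80 and 0.53 per unit, and 0 rose. Of all probe sets 14.1% fell and 17.3% rose. *mai-1* and *mai-2* encode inhibitors of the ATPase activity of ATP synthase. *ant-1.4* ran from 5.47 on *daf-16*; e1370 replicate 5 to 9.90 on replicate 1 of the same genotype.

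Of 12 genes of ubiquinone synthesis and chain assembly, 1 rose with *daf-16* over both alleles, where 3.63% of all probe sets were higher. It was *coq-4*, needed to make ubiquinone, higher by 0.45 ± 0.12 (limma, adjusted p = 0.0217). *clk-1*, which encodes the hydroxylase near the end of that synthesis, was higher in e1370 than in m577 by 0.88 ± 0.20 (limma, adjusted p = 0.0393). It read 10.41, 9.86, 9.75, 9.61 and 9.86 against 8.61, 9.18, 8.94, 9.15 and 9.20. Between these alleles 1.32% of all probe sets passed. Of 22 genes of the citrate cycle and pyruvate dehydrogenase, 1 rose with *daf-16* over both alleles, against 3.63% of all probe sets. It was *mdh-1*, a malate dehydrogenase, higher by 0.48 ± 0.12 (limma, adjusted p = 0.0205). *mdh-1* stood at 12.50 to 12.89 in m577 and 11.88 to 12.45 in *daf-16*; m577. The other malate dehydrogenase gene of the list, *mdh-2*, did not pass. Whether *mdh-1* acts in the mitochondrial cycle was not examined, so its call does not show a change of that cycle. With the oocyte list, 3 of the 12 ubiquinone and assembly genes rose and 1 fell, where 17.3% and 14.1% of all probe sets did. Of the 22 citrate cycle and pyruvate dehydrogenase genes, 6 rose and 1 fell. Those that rose include *aco-2*, the mitochondrial aconitase, by 0.79 ± 0.11 per unit (adjusted p = 3.42e-05), the same size as *ucr-2.3*.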

How the data were processed

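Whole-animal RNA of 4 genotypes, 5 biological replicates each, was hybridised to Affymetrix *C. elegans* arrays. Per the labels, scans were processed with MAS 5.0, and RMA in version 1.4.14 of R's Affymetrix package then normalized all 20 arrays jointly. The deposited values were taken as log2, from their range. Joint normalization hides changes in total RNA, and 5 arrays a genotype limit the precision.

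Genes were named from the platform annotation for probe sets with 1 symbol, and all 63 members matched RefSeq genes on WBcel235, which gave chromosomes. The 77 control probe sets were left out. limma 3.58.1 in R 4.3.3 fitted 1 mean per genotype to 22548 probe sets. It gave 6 comparisons, all 2-sided, with Benjamini-Hochberg adjustment over all probe sets and calls at 0.05. A positive difference means higher with *daf-16*, or higher in e1370 than in m577. The oocyte list mean was added as a covariate in a further fit. The model was run on simulated data with independent probe sets and the same spread in every genotype. The arrays here have neither, so the simulation checks the computation and not the calls. Figures used matplotlib 3.10.9.

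Members, lists and tests were chosen with earlier results of these data known. Full values are given for every member called, or for the 3 with the smallest adjusted p in a comparison, for paralogs, and for the most and least variable member. Other pathway genes were limited to the largest differences or calls. *isp-1*, *mev-1* and the members named for their oocyte slopes were chosen after their values were seen. Replicate numbers were not taken as pairs in the main fit. Of 30 pairs across genotypes with the same number, deviations correlated above 0.1 in 14, with a median r of 0.083. Of 120 with different numbers they did so in 47, with a median of −0.035. Whether the numbers pair the arrays was not tested. Alternatives were other normalizations, filters, fits, blocks and covariates, the mean over a gene's probe sets, and leaving out arrays. Transcript levels of mitochondrially encoded subunits were not analysed here. The individual values of 1 member and its paralog are not reported here; both stay in the counts.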

Additional observations from a re-analysis of the deposited data

Results flagged for a closer look

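In 25 cases, 24 of single members and 1 of a complex's mean, an array stood far from the other 4 of its genotype. The gap to the nearest array is given as a share of the genotype's whole range. The members make 252 gene and genotype combinations, of which chance gives about 1 in 20. On m577 replicate 3, which had the lowest sperm level, *cyc-2.2* was low at 6.36 with the nearest array at 9.03 (0.817), and *asg-2* was low at 10.68 against 11.52 (0.735). Also low there were *ndua-8* (0.768), *sdhd-1* (0.766), *nduf-7* (0.726), *atp-5* (0.72) and the mean of both cytochrome c genes (0.734). On *daf-16*; e1370 replicate 2, which had the lowest oocyte level, *nduv-3* was high at 11.90 against 10.08 (0.823) and *nduc-2* at 12.09 against 11.10 (0.768). *ndua-2* (0.847) and *ndua-1* (0.824) were also high there, while *ndub-10* (0.814) and *nuo-4* (0.773) were low. The widest gap, 0.87, was that of *nuo-4* on e1370 replicate 2, at 9.02 against 11.06. *cox-18* was high on e1370 replicate 1 at 7.77 against 7.11 (0.762), as was *nduf-7* (0.759), and *nduf-11* was low on e1370 replicate 5 (0.829). *cox-6C* was low on *daf-16*; e1370 replicate 5 (0.832). On m577 replicate 1, *cox-17*, a copper carrier for complex IV, was high (0.726), and *atp-3* (0.797) and *ndub-10* (0.739) were low. In *daf-16*; m577, *cox-11* (0.794) and *cox-15* (0.754) were low and *ndub-8* (0.717) was high on replicate 5, and *ndub-10* was low on replicate 1 (0.753).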

How the results depend on the processing

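Under 34 other settings no called value changed sign. Of the recomputed values, 1261 kept their side of the threshold or moved little, and 147 did not. The single call over both alleles, *cox-6A*, left 0 members passing with cyclic loess, with a replicate block by the number in the strains' alternative names, with sperm and oocyte means as covariates, with the 3' minus 5' difference as covariate and with the mean over a gene's probe sets. The number passing was 1 or 2 without any single array, against 5.38% to 7.81% of all probe sets. It was 2 (3.17%) without m577 replicate 1 or *daf-16*; e1370 replicate 5, against 6.1% and 6.08%. Without the 3 arrays with the lowest sperm level it was 2, against 5.22%. Array quality weights gave 7 members passing over both alleles, 1 in e1370, 24 in m577, 5 for the difference between alleles, 9 for the alleles with *daf-16* and 1 without it, against 15%, 6.47%, 29.5%, 4.94%, 11.6% and 0.439% of all probe sets. In e1370, 1 passed (1.59%) with the germ line covariates, with the 3' minus 5' covariate and with the mean over probe sets. Of all probe sets, or genes for the last, 6.07%, 4.28% and 5.01% passed. Without the least correlated array of each genotype 2 passed (3.17%), against 5.71%. Leaving out 1 array gave 0 or 1 in e1370. It was 1 without e1370 replicate 2, *daf-16*; e1370 replicate 2 or replicate 5, against 4.39%, 5.52% and 4.07%. In m577, 2 passed (3.17%) in a fit to those genotypes only, against 3.46%. For the alleles with *daf-16*, 10 passed with the germ line covariates (15.9%, against 6.54% of all probe sets). Without the least correlated arrays 3 passed (4.76%, against 3.44%), and without single arrays 0 to 5 (against 0.537% to 3.08%). For the alleles without *daf-16* the germ line covariates gave 1 (1.59%, against 0.0177%). The median for the difference between alleles was 0.131 with cyclic loess, and that in m577 was 0.02 with the 3' minus 5' covariate. Of the slopes on the oocyte list, 4 rose and 5 fell with array weights, 4 and 3 with a replicate block, 4 and 5 without the least correlated arrays, and 12 fell with the sperm mean as covariate. Those that fell were 7.94%, 4.76%, 7.94% and 19% of the members, against 6.73%, 2.98%, 6.82% and 5.1% of all probe sets, so under the first 3 the excess was small. Leaving out 1 array gave 6 to 10 that rose and 18 to 22 that fell. *ucr-2.2* lost its slope call with the sperm covariate (−0.34, limma, adjusted p = 0.109), and *nduv-3* with weights, the block or the least correlated arrays left out. Probe sets called ranged from 643 to 3390 over both alleles (1425 as reported) and from 58 to 6645 in m577 (404 as reported). The causes were not tested. Replicate numbers were not taken as pairs in the main fit, and the block by replicate number is given as an alternative only. Low signal limits *ant-1.2*, which lies near the controls.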
